A study of Mus musculus with 6 samples.

Results

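The 32 genes described here encode the proteins that bring glucose into the cell, split it to pyruvate, make and move lactate, pass pyruvate to the mitochondria and run the pentose phosphate pathway, together with the transcription factor gene Hif1a. They were chosen by symbol as a list of glucose metabolism genes, and each symbol matched 1 of the 28692 genes counted. Their unique molecular identifiers (UMIs, 1 per captured RNA molecule) were summed per library over cells of each type. The cells were live CD45+ leukocytes sorted from the central nervous system of C57BL/6 mice. Experimental autoimmune encephalomyelitis (EAE), which models multiple sclerosis, had been induced 13 or 21 days before in the groups of those days. The remaining groups are labelled day 0. The mice were wild type (WT) or lacked the microRNA miR-155 (labelled miR-155KO, here KO). Each of the 6 groups was 1 droplet library of 3' ends. The labels give 5 mice per group and do not say how they were combined, and they do not say what was done to the day 0 mice or whether the miR-155 deletion is found in all cells. The tissue label is brain, and the protocol names spinal cord too. In the titles, both samples of a day begin with the same number, which differs between days, so day and whatever that number marks cannot be told apart. Mir155hg, the host gene of miR-155, was counted at 2, 45 and 59 UMIs in WT on days 0, 13 and 21 and at 0, 0 and 1 in KO, and the labels do not say whether the counted 3' end lies in the deleted part.

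Glycolysis turns 1 glucose into pyruvate in the cytosol. Lactate dehydrogenase turns pyruvate into lactate, which leaves by monocarboxylate transporters, while pyruvate dehydrogenase commits pyruvate to the citric acid cycle. The pentose phosphate pathway branches off at glucose 6-phosphate and supplies NADPH, which the oxidative burst of phagocytes uses, and pentoses. Activated macrophages, T cells and neutrophils are known for heavy use of glycolysis, and HIF-1, whose oxygen-regulated subunit Hif1a encodes, is a known activator of many of its genes.

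The libraries held 6321841 to 24243660 UMIs over 20030 barcodes, with medians of 3019 to 4368.5 UMIs per barcode, and any pair of libraries had 5 to 32 barcode sequences in common. Cells were assigned to a class where at least 3 of its marker genes had a UMI and no other class had more than 0.5 times as many. This left 4691 barcodes with markers of several classes and 169 with too few, so 5.78% to 31.4% of the cells of a library were set aside as mixed. The microglia-like class held 429 to 1693 cells per library and the neutrophil-like class 79 to 943. T-like cells numbered 83 to 1291 and B-like cells 87 to 430. For monocyte/macrophage-like cells the numbers were 87 (WT) and 44 (KO) on day 0, 512 and 590 on day 13, then 766 and 220 on day 21. Markers of microglia summed to 13953 to 37164 CPM (UMIs of a gene scaled to the usual common total per class and library) in microglia-like cells and to 175 to 626 CPM in monocyte/macrophage-like, neutrophil-like and T-like cells. None of the 32 genes was used to assign cells. A lower level in a class can mean less RNA in each cell or fewer cells that hold the RNA, and the sums do not tell these apart. Values in series of 6 are given in the order WT day 0, KO day 0, WT day 13, KO day 13, WT day 21 and KO day 21.

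As the mice differed in miR-155, its sequence is shown first, with the 4 members whose longest annotated 3' untranslated region holds 1 of 2 words of 7 bases that fit its seed. Capitals mark bases 2 to 8 of the mature miRNA (RefSeq, GRCm38.p6, chr16:84714143-84714165, plus strand) and the word found in each transcript. In Pdk1, Hif1a and Slc16a1 the word pairs with bases 2 to 8, and in Pfkp it pairs with bases 2 to 7 and ends in the A opposite base 1, so that base 8 is not matched there.
miR-155-5p: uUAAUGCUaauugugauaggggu
Pdk1: caagctaaAGCATTAgcgggaaga
Hif1a: attttagaAGCATTAttttaggaa
Slc16a1: atttttctAGCATTAtagttgcct
Pfkp: tgatcatccGCATTAAatttagct
The letters searched were AGCATTA and GCATTAA, on the transcript strand. They start at base 985 of the 3734 of the Pdk1 region, 1036 of 1827 in Hif1a and 545 of 2740 in Slc16a1. In Pfkp the word starts just after base 1639 of 1692. A match was found in 12.5% of the members and in 12.6% of the 21022 genes with such a region, whose median length was 961 bases against 804 for the members. A match is a description of these letters, not a working site.

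Because many of the members moved together in the comparisons below, stretches of 9 promoters are shown, chosen after their values were seen. The letters ACGTG and GCGTG, the core that HIF-1 is known to bind, were searched on both strands. Each window that RefSeq gives for a gene (GRCm38.p6) was used, covering the 250 bases before a start of transcription. Ldha, Pdk1 and Aldoa have several windows, and a stretch with matches is shown for each. Another window of Pdk1 and another of Aldoa held no match. Annotated untranslated regions covered 15 bases of the Slc2a1 stretch and 14 of the Slc16a3 stretch. CACGTG, which reads the same on both strands, holds ACGTG on each. Capitals mark the matches.
Ldha, chr7:46845647-46845786, plus strand: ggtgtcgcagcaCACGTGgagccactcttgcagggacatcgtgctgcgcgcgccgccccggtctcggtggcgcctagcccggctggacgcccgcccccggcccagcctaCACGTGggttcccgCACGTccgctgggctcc
Pgk1, chrX:106186938-106186985, plus strand: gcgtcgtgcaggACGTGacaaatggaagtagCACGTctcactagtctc
Pgam1, chr19:41911684-41911799, plus strand: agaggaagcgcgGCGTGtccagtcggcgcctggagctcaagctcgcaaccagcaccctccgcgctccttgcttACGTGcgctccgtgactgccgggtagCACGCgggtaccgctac
Slc2a1, chr4:119108672-119108725, plus strand: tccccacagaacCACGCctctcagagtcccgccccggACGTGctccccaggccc
Slc16a3, chr11:120949028-120949066, plus strand: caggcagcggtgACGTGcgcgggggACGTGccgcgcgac
Pdk1, chr2:71873134-71873162, plus strand: ccgcctacatggGCGTGtctttaaccagg
Aldoa, chr7:126799364-126799392, minus strand: tgtggctcgagtCACGTcctagcggggcg
Ldhb, chr6:142508067-142508095, minus strand: gcgggggagagcGCGTGcacactccagcc
Taldo1, chr7:141392068-141392096, plus strand: ccgtgacacgggGCGTGgtctatggcaag
At least 1 such match was found in 28 of the 31 members with an entry (90.3%) and in 11226 of 27025 genes (41.5%). A gene with several windows was counted if any of them held a match. Per window the shares were 78.6% of 42 for members and 38.6% of 32851 for all genes. The genes were not matched to the members for base composition or expression, so these shares do not show that the letters are particular to the members. ACGTG was found in 41.9% of the members against 18.5% of all genes, and GCGTG in 67.7% against 30.9%. Tpi1, Gpi1 and Dlat hold neither in their windows, which says only that these letters are not there. The match was also present in members that moved otherwise, Ldhb and Taldo1 among them.

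Monocyte/macrophage-like cells carried more RNA than microglia-like cells for most of the glycolytic enzymes. In the 4 libraries of days 13 and 21, the 32 genes summed to 12130, 11965, 9174 and 7252 CPM in these cells, against 5122, 5331, 4550 and 4218 in microglia-like cells of the same libraries. In edgeR's quasi-likelihood test with the library as block (Benjamini-Hochberg adjustment over all genes, threshold 0.05), 25 of 32 members were higher than in microglia-like cells and 4 lower. Of all genes tested, 28.6% were higher and 29.3% lower, and the median log2 difference was 1.28 over the members and -0.05 over all genes. With scaling to library totals the members split into 21 higher and 5 lower, and the median of all genes moved to -0.29.

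**Figure D1:**
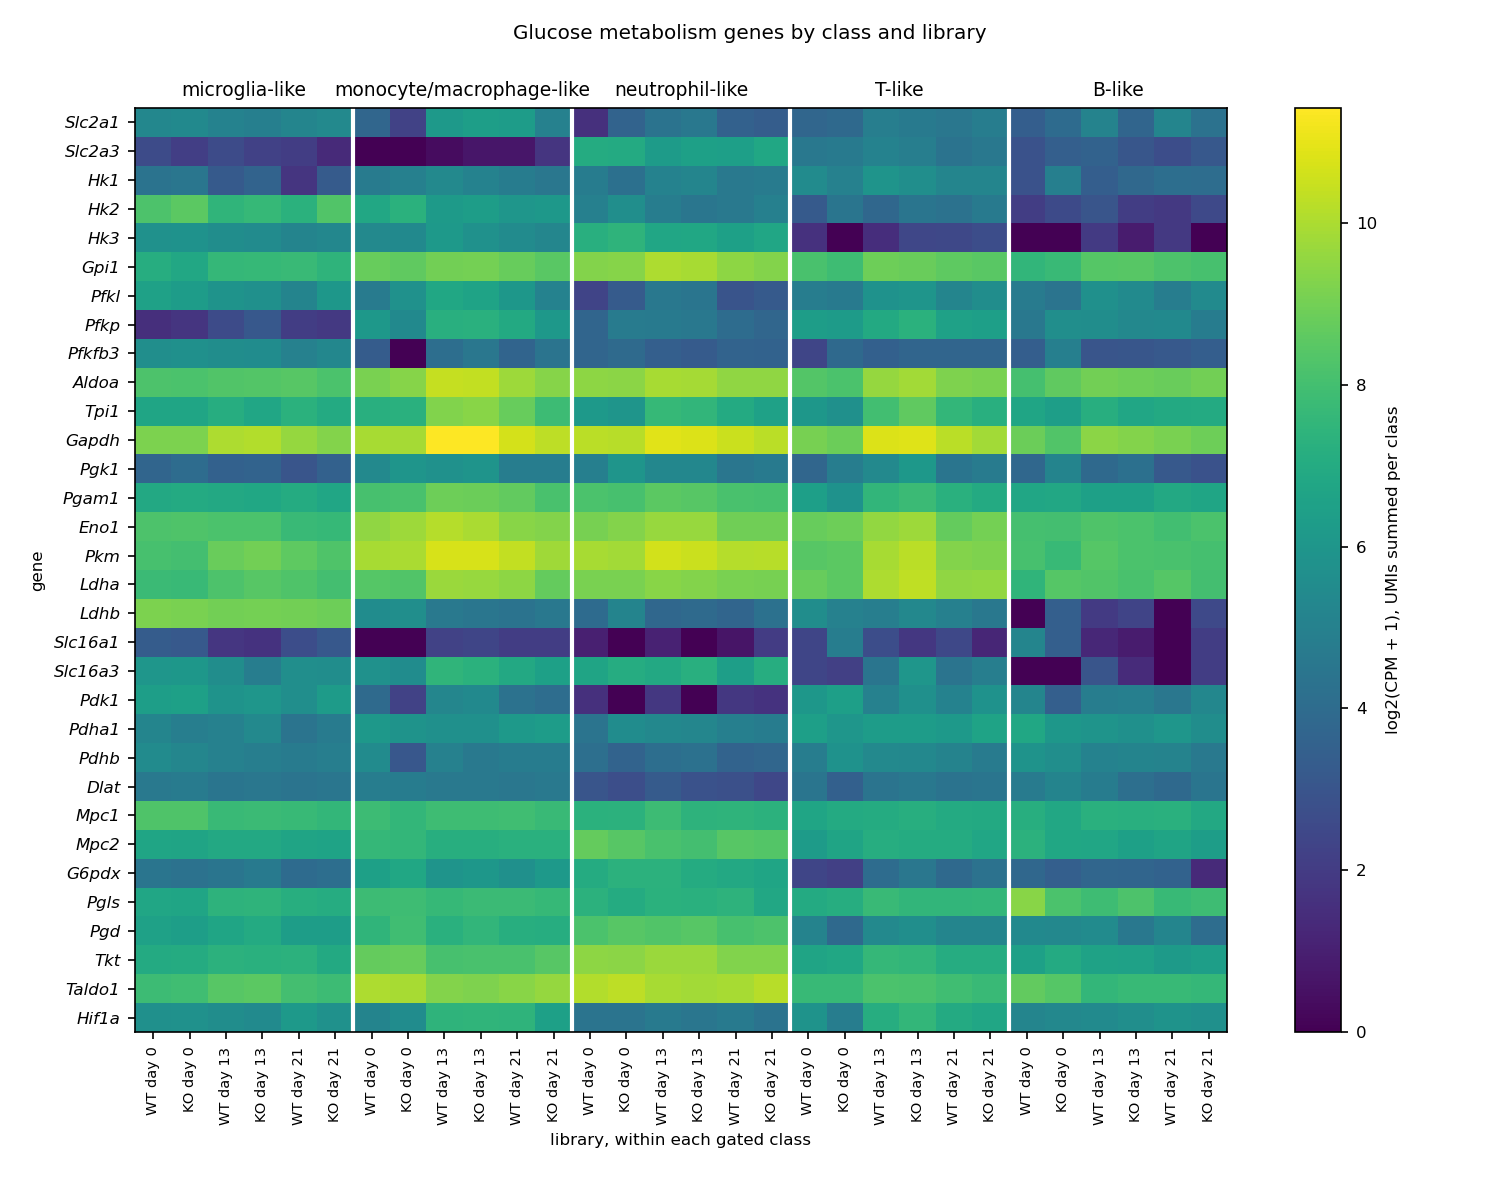
Level of each of the 32 genes (vertical axis) in each library of 5 gated classes (horizontal axis), as log2(CPM + 1) of summed UMIs by color. Among the columns of days 13 and 21, Aldoa, Tpi1, Gapdh, Pgam1, Eno1 and Pkm are brightest in monocyte/macrophage-like cells of day 13. Ldha and Pgk1 reach their highest values there in T-like cells. Ldhb is bright only in the microglia-like columns of these 5 classes, and Tkt and Taldo1 are bright in the neutrophil-like columns.

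The largest difference upwards was that of Pfkp, the platelet-type subunit of phosphofructokinase, the committed step of glycolysis. It stood at 144, 151, 120 and 66.9 CPM in monocyte/macrophage-like cells of WT day 13, KO day 13, WT day 21 and KO day 21, and at 5.04, 7.97, 3.19 and 2.70 in microglia-like cells (log2 difference 4.91, SE 0.17, adjusted p = 1.15e-08). The 2 classes did not come near each other in any library. Pkm, which makes pyruvate in the last step of glycolysis, was at 1684, 1716, 1333 and 887 CPM against 455, 507, 379 and 307 (1.98, SE 0.12, adjusted p = 4.22e-07), and again the classes did not overlap. Tpi1, triose phosphate isomerase, was at 614, 663, 439 and 228 against 137, 109, 155 and 124 CPM (2.02, SE 0.26, adjusted p = 8.25e-05), with the KO day 21 library lowest. The other enzymes of this stretch were higher too, by log2 differences of 1.88 for Aldoa (aldolase), 1.42 for Gapdh, 2.23 for Pgk1 (phosphoglycerate kinase), 2.01 for Pgam1 (phosphoglycerate mutase), 2.00 for Eno1 (enolase) and 1.39 for Ldha (lactate dehydrogenase A). Slc16a3, a lactate exporter, was 1.84 and Hif1a 1.71 higher. Eno1, Pgk1 and Aldoa have near copies whose reads may have been split (Eno1b, Pgk1-rs7 and Aldoart1 had 359, 18 and 14 UMIs against 28859, 1426 and 35246), so their levels are uncertain. How reads that fit both a gene and its copy were counted is not known, so these counts do not bound that uncertainty.

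The 4 lower members were Ldhb, Hk2, Pfkfb3 and Pdk1. Ldhb, the other lactate dehydrogenase subunit (chromosome 6, 142490249 to 142507957, minus strand), was at 515, 521, 512 and 473 CPM in microglia-like cells of days 13 and 21 and at 23.7, 21.2, 19.5 and 23.1 in monocyte/macrophage-like cells (log2 difference -4.30, SE 0.13, adjusted p = 7.65e-09). Hk2, the inducible hexokinase that traps glucose as its phosphate, was at 179, 199, 154 and 317 CPM in microglia-like and 72.8, 80.7, 63.6 and 66.9 in monocyte/macrophage-like cells (-1.27, SE 0.17, adjusted p = 1.34e-04). Neither gene overlapped between the classes. Pfkfb3, whose product makes the activator of phosphofructokinase, had a log2 difference of -0.99 and Pdk1, a kinase that switches off pyruvate dehydrogenase, one of -0.86.

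Neutrophil-like cells held more RNA than microglia-like cells of most pentose phosphate genes among the members. Over 6 libraries 22 of 32 members were higher than in microglia-like cells and 6 lower (32.1% and 40.3% of all genes), with a median log2 difference of 2.34 over members and -0.20 over all genes. Here the scaling mattered: with library totals the median of all genes was -1.38 and 18 members were higher and 11 lower, and with median-of-ratios scaling it was -0.41, with 22 higher and 8 lower. The log2 differences given for neutrophil-like cells follow edgeR's default scaling (TMM), while the CPM values rest on library totals. These differences therefore stand higher than the CPM values beside them would give. G6pdx, the entry enzyme of the pentose phosphate pathway, was at 129, 159, 163, 131, 118 and 104 CPM in neutrophil-like cells and at 21.0, 18.8, 20.9, 25.4, 15.2 and 16.4 in microglia-like cells (3.95, SE 0.16, adjusted p = 3.63e-16). Tkt, transketolase, was at 710, 696, 823, 831, 607 and 613 CPM against 126, 130, 162, 152, 160 and 123 (3.50, SE 0.15). Taldo1, transaldolase, was at 1111, 1265, 980, 926, 987 and 1157 CPM against 227, 239, 347, 367, 259 and 229. All 5 members from this branch, which holds further genes, were higher. Taldo1 was higher by 3.14, Pgd (phosphogluconate dehydrogenase) by 2.92 and Pgls (phosphogluconolactonase) by 1.28, which was 0.10 and did not pass with library totals.

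Glucose uptake and its first steps also differed in kind. Slc2a3, the high-affinity glucose transporter, was at 130, 127, 76.5, 89.3, 86.6 and 110 CPM in neutrophil-like cells and at 5.15, 3.29, 5.04, 3.62, 3.19 and 1.54 in microglia-like cells (6.09, SE 0.24, adjusted p = 2.22e-16). No neutrophil-like value was near a microglia-like one. Hk3, a hexokinase of myeloid cells, was higher by 2.58 and Gpi1, glucose phosphate isomerase, by 3.35, again after TMM scaling. Lower were Ldhb (-3.87), Pdk1 (-3.77), Hk2 (-1.85), Pfkl, the liver-type phosphofructokinase (-1.12), Pfkfb3 (-0.78) and Dlat, a core subunit of pyruvate dehydrogenase (-0.58). Pdk1 was at 0 to 2.65 CPM in the neutrophil-like sums.

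T-like cells differed from microglia-like cells in both directions. Against microglia-like cells 13 members were higher and 9 lower (29.6% and 33.9% of all genes), with medians of 0.17 and -0.04 on the log2 scale. Pfkp was at 81.8, 76.7, 122, 155, 93.0 and 85.9 CPM, against 1.93 to 7.97 in microglia-like cells (4.84, SE 0.18, adjusted p = 1.04e-09). Slc2a3 was higher by 2.84, Hk1 (the housekeeping hexokinase, which an antisense gene, Hk1os, overlaps) by 2.01, Ldha by 1.42 and Pdha1, the E1 subunit of pyruvate dehydrogenase, by 1.42. Ldhb (-4.00), Hk2 (-3.63), Hk3 (-3.53), Pfkfb3 (-1.91) and Pgd (-1.37) were among the lower ones.

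Ordered by mean CPM (library totals) over the 4 libraries of days 13 and 21, monocyte/macrophage-like cells ranked first of 5 classes for 14 members. Neutrophil-like cells did so for 8, microglia-like for 5, T-like for 4 and B-like for 1, which was Pgls. For all 8 neutrophil-like ones the values lay above every value of the next class (Slc2a3, Hk3, Gpi1, Mpc2, G6pdx, Pgd, Tkt and Taldo1). These are 8 of the 32 members. Of 8853 genes, whichever class came first, 4.82% ranked first in neutrophil-like cells with ranges apart. For 3 microglia-like members (Hk2, Pfkfb3 and Ldhb) the ranges were apart, which is 3 of 32, beside 15.5% of the 8853 genes. Of the 14 monocyte/macrophage-like ones 1 was apart (Dlat), which is 1 of 32, beside 5.03% of the 8853 genes. The other 13, most glycolytic enzymes among them, overlapped the values of the next class. Pgls was at 665 and 288 CPM in B-like cells of day 0 and 206 to 297 later, and at 829 and 878 CPM in the plasmacytoid dendritic-like cells of day 13 (61 and 127 cells).

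Within enzyme families the classes used different genes, which can be read as a share and does not depend on scaling. Shares were read where a class held 50 or more cells in a library. This leaves KO day 0 out for monocyte/macrophage-like cells, so their shares come from 5 libraries. Ldhb made up 72.4%, 72.4%, 63.3%, 59.7%, 62.7% and 64.9% of the lactate dehydrogenase UMIs (Ldha and Ldhb) of microglia-like cells. In neutrophil-like cells it was 1.89% to 5.88%, in T-like cells 2.69% to 10.1%, and in plasmacytoid dendritic-like cells of day 13 36.0% and 28.9%. Hk2 made up 76.2% to 87.2% of the hexokinase UMIs (Hk1, Hk2 and Hk3) in microglia-like cells and 12.9% to 20.5% in neutrophil-like cells, where Hk3 made up 64.0% to 72.3%. Slc2a3 was 79.4% to 98.5% of the 2 glucose transporters in neutrophil-like cells, 46.0% to 64.7% in T-like cells, 3.64% to 13.5% in microglia-like cells and 0% to 7.14% in monocyte/macrophage-like cells. Pfkp was 2.04% to 12.9% of the phosphofructokinase UMIs (Pfkl, Pfkm and Pfkp) in microglia-like cells, and 52.3% to 75.0% in neutrophil-like, 64.3% to 73.3% in T-like and 56.6% to 71.2% in monocyte/macrophage-like cells.

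**Figure D2:**
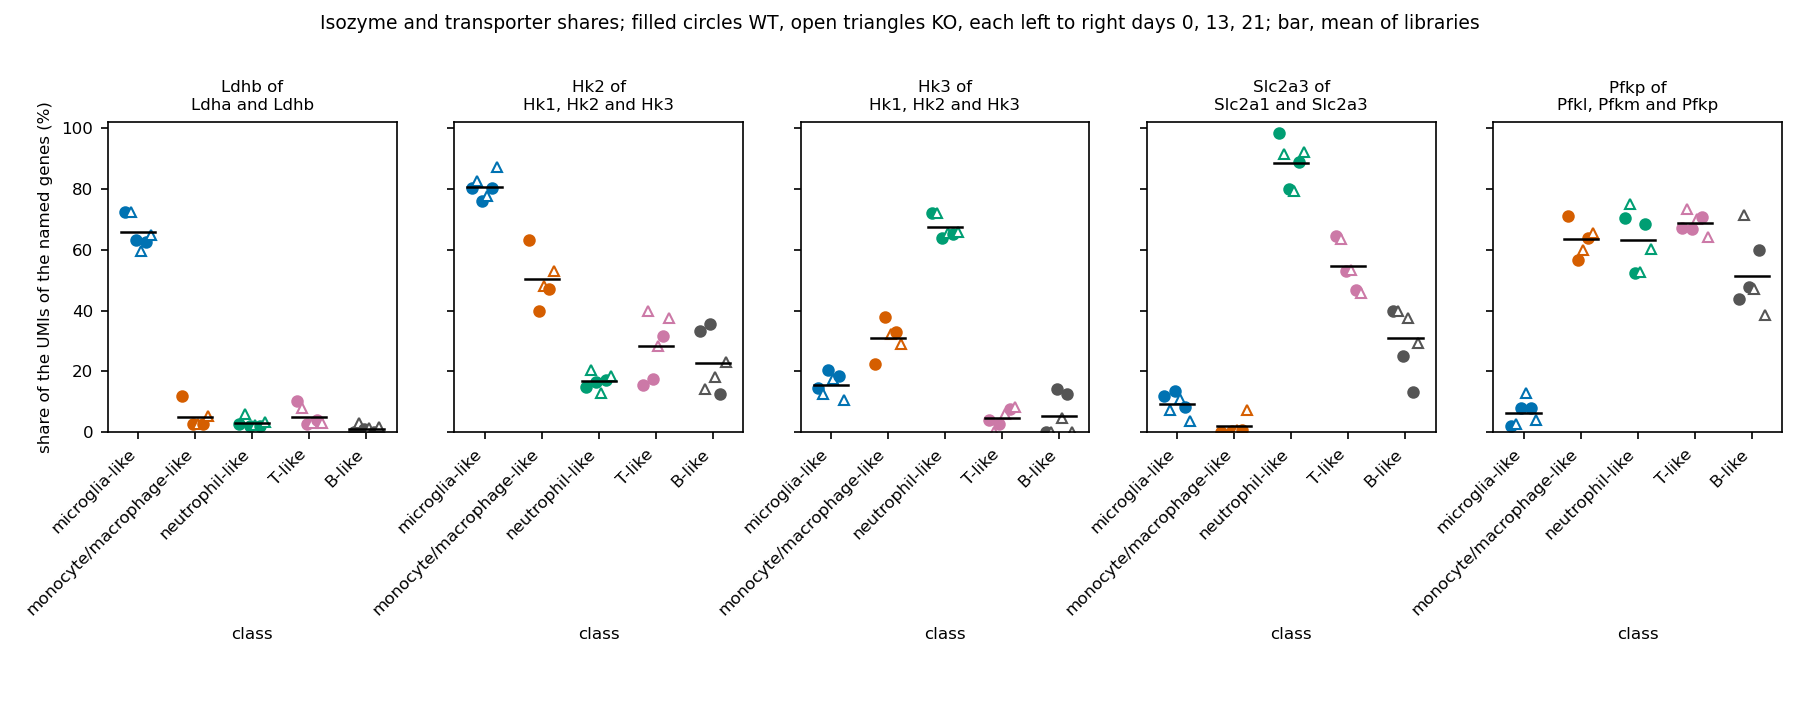
Share (%, vertical axis) of 1 gene among the UMIs of its family in each class (horizontal axis); each point is a library, filled circles WT and open triangles KO, with days left to right, and the bar is the mean. Microglia-like cells stand apart in Ldhb, Hk2 and Pfkp, and neutrophil-like cells in Hk3 and Slc2a3. KO day 0 is not shown for monocyte/macrophage-like cells, which held fewer than 50 cells there.

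The share of Ldhb was lower than in microglia-like cells of the same library by a mean of 60.8 points in T-like cells (-60.84 ± 2.80, SD, n = 6 libraries, two-sided exact sign-flip permutation test) and by 62.9 in neutrophil-like cells (-62.9 ± 4.45). For Hk2 the differences were -52.37 ± 7.96 and -64.09 ± 3.17 points, for Slc2a3 45.33 ± 7.45 and 79.29 ± 9.47, and for Pfkp 62.55 ± 4.81 and 56.99 ± 12.9. The share of Hk3 was 10.9 points lower in T-like cells (-10.91 ± 5.10) and 51.91 ± 6.52 points higher in neutrophil-like cells. Each of these 10 differences had the same sign in 6 of 6 libraries, and each had an exact permutation p of 0.031, before and after adjustment, the smallest that 6 pairs can give. Some day 0 shares rest on few UMIs. In T-like cells the hexokinases had 26 (WT) and 15 (KO) and the 2 glucose transporters 17 and 11. In neutrophil-like cells the phosphofructokinases had 17 and 12. In monocyte/macrophage-like cells the 2 glucose transporters had 7 UMIs in WT day 0, and 42 in KO day 21. Where cells with markers of several classes were kept, the Hk2 and Hk3 differences of T-like cells were -25.5 and -6.19 points, a move by over 1.5 times.

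Beyond the 32 members, further genes of glucose metabolism from a list of 52 did not move one way. In monocyte/macrophage-like against microglia-like cells 11 of 34 tested were higher and 7 lower. Slc2a5, a fructose transporter, had a log2 difference of -7.05 and Pygl, a glycogen phosphorylase, one of 3.25. In neutrophil-like cells 13 were higher and 13 lower of 34, led by Pygl at 6.35 and Adpgk, an ADP-dependent glucokinase, at 5.60. Adpgk was at 425 to 557 CPM in neutrophil-like cells and 19.6 to 27.8 in microglia-like cells. In T-like cells 6 were higher and 16 lower of 33. Of 20 citric acid cycle genes, 11 were higher and 2 lower in monocyte/macrophage-like cells, 6 and 7 in neutrophil-like cells and 6 and 5 in T-like cells.

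Between day 0 and day 13 many but not all of the members rose in monocyte/macrophage-like and T-like cells. These comparisons for classes other than microglia were added after the data were seen, with the 2 genotypes as the replicates of a day. In monocyte/macrophage-like cells 15 of 30 members were higher on day 13 and 1 lower (8.17% and 6.14% of all genes), with a median of 0.66 against 0.01 over all genes. Gapdh, the enzyme that reduces NAD in glycolysis, was at 961, 955, 2745, 2676, 1634 and 1242 CPM (log2 difference day 13 minus day 0 1.73, SE 0.14, adjusted p = 1.62e-05). Slc2a1, the general glucose transporter, was at 12.8, 3.82, 71.3, 84.8, 77.5 and 31.1 CPM (3.33, SE 0.56), and the first 2 values rest on 7 and 1 UMIs. Both day 13 libraries were above both day 0 libraries for these genes.

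Tpi1 was at 148, 153, 614, 663, 439 and 228 CPM in monocyte/macrophage-like cells (2.36, SE 0.26), highest on day 13. Hif1a, the HIF-1 subunit, was at 34.8, 45.8, 172, 177, 174 and 90.0 CPM (2.45, SE 0.33), low on day 0 in both genotypes. Slc16a3 was at 53.1, 45.8, 175, 154, 118 and 90.0 CPM (1.97). Ldha rose by 1.55, Pfkp by 1.65, Aldoa by 1.37, Pkm by 1.02 and Pdk1 by 2.06 on the log2 scale. Taldo1 was the 1 member that fell, by 0.47, from 1022 and 959 to 628 and 602 CPM. Of the list of HIF pathway genes and targets 10 of 21 rose and 1 fell, among them Mif, a cytokine (3.41), and Bnip3, a mitophagy receptor (2.39), while 0 of 20 citric acid cycle genes passed the test. The day 0 sums come from 87 and 44 cells, and cell cycle genes summed to 899 and 603 CPM in them against 67.5 and 177 on day 13. Dissociation-induced genes summed to 4470 and 4855 against 1922 and 2566 CPM. Markers of border-associated macrophages summed to 908 and 829 CPM in this class on day 0 and to 310 and 274 on day 13. The monocyte/macrophage markers themselves summed to 10669 and 10236 CPM on day 0 and to 16421 and 16110 on day 13. The part of these lists in the result was not tested. Without the WT day 0 library 10 members passed, and with library totals the split was 12 higher and 4 lower.

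In T-like cells 12 of 30 members were higher on day 13 than on day 0 and 1 was lower (6.65% and 6.57% of all genes), with a median of 0.58. Gapdh was at 539, 460, 1818, 1885, 1206 and 928 CPM (1.67, SE 0.13, adjusted p = 1.55e-07). Ldha was at 430, 373, 1044, 1298.5, 747 and 770 CPM (1.29), with both day 13 libraries highest. Tpi1 was at 65.0, 52.3, 246, 401, 187 and 149 CPM (2.16, SE 0.27). Slc16a3 rose by 2.98, from very few UMIs on day 0. Hif1a rose by 1.61, Pkm by 1.37, Pgk1 by 1.24 and Aldoa and Pgam1 by 1.21 each. Pdk1, at 65.0, 87.1, 31.4, 51.5, 32.4 and 55.9 CPM, fell by 1.14 (SE 0.25), in the opposite direction to the same gene in monocyte/macrophage-like cells. That contrast between classes was not tested. Cell cycle genes moved with the result (451, 146, 894, 931, 530 and 312 CPM summed, 9 of 14 higher on day 13). Dissociation-induced genes summed to 2852 and 3039 CPM on day 0 and 1147 and 1625 on day 13, with 8 of 12 lower, and NK cell markers in WT to 296 and 915. Monocyte/macrophage markers summed to 961 and 840 CPM in these cells on day 0 and to 1785 and 1476 on day 13. The part of these lists was not tested. Without the KO day 0 library 8 members passed, and 20 did where cells with mixed markers were kept.

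Neutrophil-like cells were mixed, with 5 of 30 members higher and 4 lower on day 13 (8.12% and 6.97% of all genes) and a median of 0.04. Tpi1 rose by 1.34 and Pfkl by 1.83, while Slc2a3 fell by 0.88, Hk3 by 0.76, Mpc2, a subunit of the mitochondrial pyruvate carrier, by 0.74 and Taldo1 by 0.51. Monocyte/macrophage markers summed to 1814 and 1978 CPM in these cells on day 0 against 5077 and 5022 on day 13, genes of the cell cycle to 457 and 202 against 1125 and 926, and dissociation-induced genes to 1522 and 2047 against 1065 and 1307 (7 of 12 lower). Progenitor markers summed to 75.4 and 1530 CPM on day 0 and 948 and 1119 on day 13. The part of these lists was not tested. With library totals the split was 8 higher and 3 lower. Without the WT day 0 library 1 member passed, without KO day 0 6 and without KO day 13 5.

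**Figure D3:**
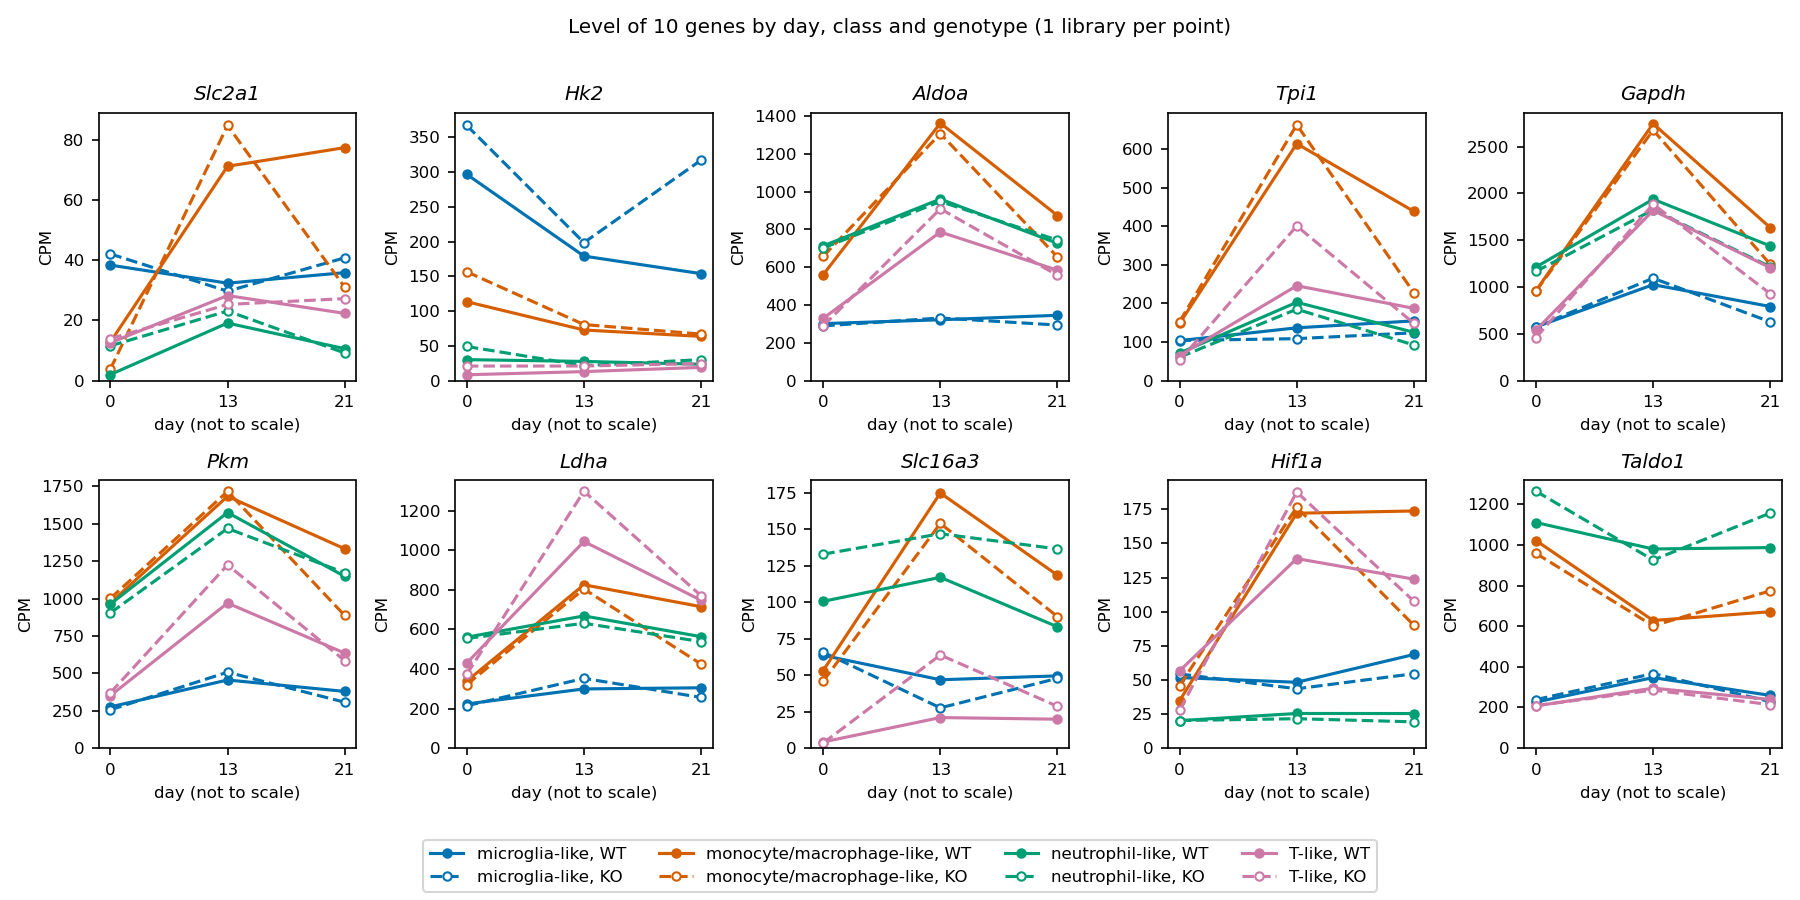
Level (CPM, vertical axis, from 0) of 10 members on days 0, 13 and 21 (horizontal axis, not to scale) in 4 classes, solid lines WT and dashed lines KO, 1 library per point. Gapdh, Tpi1, Aldoa and Ldha peak on day 13 in monocyte/macrophage-like and T-like cells of both genotypes, while microglia-like cells stay below monocyte/macrophage-like cells.

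In microglia-like cells members changed in both directions. Of 32 members 11 were higher on day 13 than on day 0 and 4 lower (15.8% and 13.4% of all genes), with medians of 0.15 and -0.03. Gapdh was at 573, 574, 1025, 1094, 791 and 627 CPM (1.11, SE 0.17) and Pkm at 275, 256, 455, 507, 379 and 307 (1.08, SE 0.17, adjusted p = 3.18e-04), with day 0 lowest and day 13 highest. Ldha rose by 0.80, Gpi1 by 0.88, Pgls by 0.89, Taldo1 by 0.84 and Pgd by 0.59. Hk2, at 297, 367, 179, 199, 154 and 317 CPM, fell by 0.57, and the KO day 21 value lay back within the day 0 range. Slc16a1, another lactate transporter, fell by 1.61, Hk1 by 0.82 and Slc16a3 by 0.53. From the further glucose genes 4 of 32 rose and 9 fell, among them Slc2a5, at 613, 612, 152, 140, 180 and 349 CPM (-1.83), and Txnip, an inhibitor of glucose uptake, at 876, 757, 172, 223, 207 and 326 (-1.85). Slc2a6, a lysosomal hexose transporter, rose by 3.83, from 3.86 and 2.12 to 36.4 and 39.1 CPM.

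Dissociation-induced genes summed to 21346 and 19473 CPM in microglia-like cells of day 0 and to 2355 to 5850 on the later days, and microglia markers to 36573 and 37164 against 13953 to 25274, and their part in these differences was not tested. With library totals the split was 7 higher and 7 lower, where the median of all genes was -0.25. Leaving out WT day 0, KO day 0 or KO day 13 left 4, 5 and 7 calls, and DESeq2 gave 6.

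From day 13 to day 21 the changed members fell. In monocyte/macrophage-like cells 8 of 31 were lower and 0 higher (2.55% and 1.98% of all genes), with a median of -0.49 against 0.00. Gapdh fell by 0.97 (SE 0.16, adjusted p = 0.00659), Pgk1 by 1.07, Tpi1 by 1.04, Aldoa by 0.86, Eno1 by 0.75, Slc16a3 by 0.70, Pdk1 by 1.19 and Pfkl by 1.14. Aldoa, for example, was at 1362 and 1307 CPM on day 13 and 873 and 654 on day 21, and Pfkl at 109 and 98.6 against 65.2 and 32.7. For each of the 8, both day 21 libraries lay below both day 13 libraries. Cell cycle genes moved the other way (67.5, 177, 307 and 527 CPM summed), and their part was not tested. The number of calls depended on the procedure: DESeq2 and scaling to library totals gave 1 each, the gate that kept mixed cells gave 0, and gates of 2 and 4 markers gave 4 and 11. Tested against the day difference of microglia-like cells, that of 5 of 32 members was lower in monocyte/macrophage-like cells and that of 1 higher (0.922% and 1.23% of all genes), which became 2 calls without KO day 13 and 13 without WT day 21.

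In T-like cells 6 of 30 members were lower on day 21 than on day 13 and 0 higher (1.03% and 1.07% of all genes). Gapdh fell by 0.70 (SE 0.12, adjusted p = 0.00433), Eno1 by 0.67, Pkm by 0.72, Pgk1 by 0.999, Ldha by 0.52 and Tpi1 by 0.75. Cell cycle genes summed to 894 and 931 CPM on day 13 and 530 and 312 on day 21 (5 of 14 lower), while 5 of 12 dissociation-induced genes were higher, and their part was not tested. DESeq2, or leaving out either KO day 13 or KO day 21, left 3. In neutrophil-like cells Pfkl (-1.42), Tpi1 (-0.68) and Eno1 (-0.55) were lower and 0 members higher (2.25% and 1.76%). Monocyte/macrophage markers went from 5077 and 5022 to 3359 and 2606 CPM there, and their part was not tested. DESeq2 gave 0 calls in these cells, library totals 5, and leaving out WT day 13, KO day 13 or KO day 21 gave 1 each. In microglia-like cells edgeR called 0 of 32 in either direction (1.97% of all genes), where 9 had an unadjusted p under 0.05 and DESeq2 called 0. Without the WT day 21 library 7 were called. Those WT day 21 cells held T markers at 250 CPM against 41.0 in KO day 21, and the part of this was not tested.

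Within monocyte/macrophage-like cells, RNA of many glycolytic genes was higher in the cells with a UMI of Arg1. Arg1 encodes arginase 1, a macrophage enzyme of arginine metabolism, and it was used for the split with earlier results of these data known. It was seen in 81 of 512 cells in WT day 13 (15.8%, exact 95% interval 12.8 to 19.3), 99 of 590 in KO day 13 (16.8%, 13.9 to 20.04), 63 of 766 in WT day 21 (8.23%, 6.38 to 10.4) and 6 of 220 in KO day 21 (2.73%, 1.01 to 5.84). On day 0 it was seen in 0 of 87 and 0 of 44 cells. In microglia-like and T-like cells, which should lack it, the share was 0% to 0.453% and 0% to 1.47%. Summed within each library, 13 of 30 members were higher in the cells with an Arg1 UMI and 0 lower (3.47% and 2.58% of all genes), with a median of 0.46 against -0.02.

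Tpi1 was at 848, 953, 1093 and 657 CPM in cells with an Arg1 UMI and at 568, 598, 380 and 218 in those without, in WT day 13, KO day 13, WT day 21 and KO day 21 (log2 difference 0.99, SE 0.15, adjusted p = 9.56e-09). Ldha was at 1126, 1006, 1559 and 1245 against 766, 759, 640 and 405 CPM (0.86, SE 0.15, adjusted p = 8.73e-07). Gapdh was at 3615, 3499, 2967 and 2905 against 2572, 2491, 1515 and 1203 CPM (0.73, SE 0.15). For all 3 genes the cells with Arg1 were higher in 4 of 4 libraries, and the cells without Arg1 were lower in both day 21 than in both day 13 libraries. Slc2a1 was higher with Arg1 by 0.74, Slc16a3 by 0.83, Aldoa by 0.83, Pfkl by 0.98 and Pdk1 by 1.11 (53.2, 61.9, 65.4 and 104 against 34.0, 36.6, 14.4 and 13.9 CPM). Slc2a1 was at 74.2, 103, 181 and 242 against 70.7, 80.8, 68.3 and 26.1 CPM, so its difference lay mostly on day 21. The KO day 21 value with Arg1 comes from 6 cells. Glucose entry, many glycolytic enzymes, lactate export and the pyruvate dehydrogenase kinase were thus represented, while 0 of the 5 pentose phosphate members passed. Not every glycolytic gene was higher with Arg1 in each library. Pfkp was lower with Arg1 in both day 13 libraries (93.2 and 94.5 against 155 and 164 CPM). In both day 21 libraries it was higher (173 and 207 against 115 and 63.6 CPM). Hk1 was higher with Arg1 in 2 of 4 libraries and Hk2 in 3 of 4. Taldo1 was lower in 4 of 4 libraries (534, 434, 435 and 761 against 647, 639, 692 and 775 CPM) without passing the test.

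**Figure D4:**
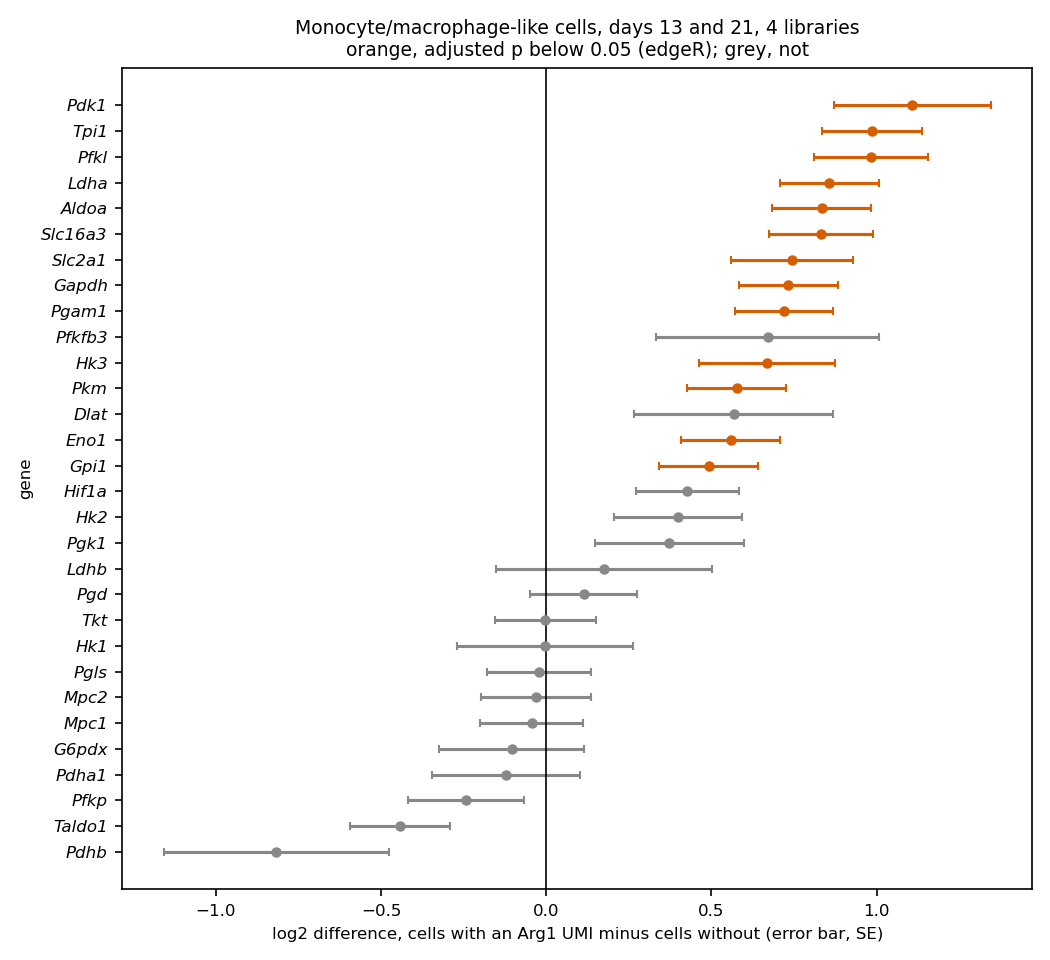
Log2 difference between monocyte/macrophage-like cells with and without an Arg1 UMI (horizontal axis, point with SE) for the 30 members tested (vertical axis) over 4 libraries; orange marks an adjusted p below 0.05 in edgeR. The 13 orange genes all lie to the right of 0, with Pdk1 (1.11), Tpi1 (0.99) and Pfkl (0.98) farthest.

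Other lists moved beside them. Of the HIF list 8 of 20 tested were higher and 0 lower, among them Egln3, a HIF prolyl hydroxylase (1.61), Mif (1.38), Aldoc, the brain-type aldolase (1.31), and Bnip3 (1.23). Of 20 citric acid cycle genes 1 was lower, Fh1 (fumarate hydratase, -1.35), and of 13 cell cycle genes 5 were lower, with a median of -2.03. The median cell with an Arg1 UMI held 6410, 6007, 3973 and 4989 UMIs, against 6054, 5116, 3865 and 5401 without, so it held more in 3 of 4 libraries, and the part of this was not tested. DESeq2 called 9 members. Without the WT day 21 library 8 members were higher and 1 lower, and without KO day 21, whose Arg1 side holds 6 cells, 11 were higher and 1 lower.

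The genotypes were compared with day as block, so that the days are the only replicates. EdgeR called 0 of 32 members in microglia-like, 0 of 30 in T-like, 0 of 31 in monocyte/macrophage-like and 0 of 30 in neutrophil-like cells. Of all genes 0.0192%, 0.624%, 0.011% and 0.0294% were called. At an unadjusted p under 0.05 there were 1, 5, 1 and 5 members, and DESeq2 called 0 in each.

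Closest to the threshold was Slc16a3, the lactate exporter encoded on chromosome 11 (120948480 to 120960868, plus strand), in T-like cells. It was at 4.19, 20.9 and 19.8 CPM in the WT and at 3.49, 63.7 and 28.6 in the KO libraries of days 0, 13 and 21 (log2 difference 1.13, SE 0.26, adjusted p = 0.0588 in edgeR), so the KO value was higher on days 13 and 21 and not on day 0. Of 15 alternative procedures 6 called it, with adjusted p from 0.000345 to 1: no filter on low counts, a gate of 4 markers, and leaving out WT day 0, KO day 0, WT day 21 or KO day 21. Markers of monocytes/macrophages, in which Slc16a3 is high, summed to 1785 CPM in the WT and 1476 in the KO T-like cells of day 13, and neutrophil markers to 393 and 196. In neutrophil-like cells it was at 100.5, 117 and 83.1 CPM in the WT and 133, 147 and 136 in the KO libraries (0.62, SE 0.14, adjusted p = 0.278), higher in KO on 3 of 3 days, and 3 of 15 alternatives called it (no filter, or leaving out WT day 13 or KO day 13). In monocyte/macrophage-like and microglia-like cells the differences of Slc16a3 were -0.29 and -0.21 and were not called.

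Of the 4 genes with a seed match to miR-155, Pdk1 in T-like cells came next (0.72, SE 0.18, adjusted p = 0.0929), at 65.0, 31.4 and 32.4 CPM in the WT and 87.1, 51.5 and 55.9 in the KO libraries, higher in KO on 3 of 3 days, and it was called without the WT day 0 library (adjusted p = 0.0495). The other Pdk1 differences were 0.22 in microglia-like and 0.02 in monocyte/macrophage-like cells. Hif1a differed by -0.16, 0.08, -0.43 and -0.15 in microglia-like, T-like, monocyte/macrophage-like and neutrophil-like cells, and Pfkp by 0.28, 0.14, -0.35 and 0.11. Slc16a1 differed by 0.01 in microglia-like and 0.10 in monocyte/macrophage-like cells. None of these passed the test, and a match was found in neither Slc16a3 nor Hk2.

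Within single days, 1 KO library was set against 1 WT library, which gives no replicate check, so only ratios with exact 95% intervals of counting error are given. In monocyte/macrophage-like cells 0 of 30 members were 1.5-fold or more apart on day 13 (2.3% of all genes higher in KO, 2.12% lower). On day 21 7 were lower in KO and 1 higher (8.38% and 10.0% of all genes). Slc2a1 had a KO to WT ratio of 0.401 (0.278 to 0.564), Pfkl 0.501, Hif1a 0.518 (0.419 to 0.635), Tpi1 0.519 (0.456 to 0.590), Pfkp 0.558, Ldha 0.594 and Pkm 0.665. Cells with an Arg1 UMI were 8.23% of the WT and 2.73% of the KO class that day. In the cells without one, Tpi1 was at 218 in KO and 380 CPM in WT, Slc2a1 at 26.1 and 68.3, and Hif1a at 84.8 and 166. Cell cycle genes stood at 527 CPM in KO and 307 in WT, and their part was not tested.

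**Figure D5:**
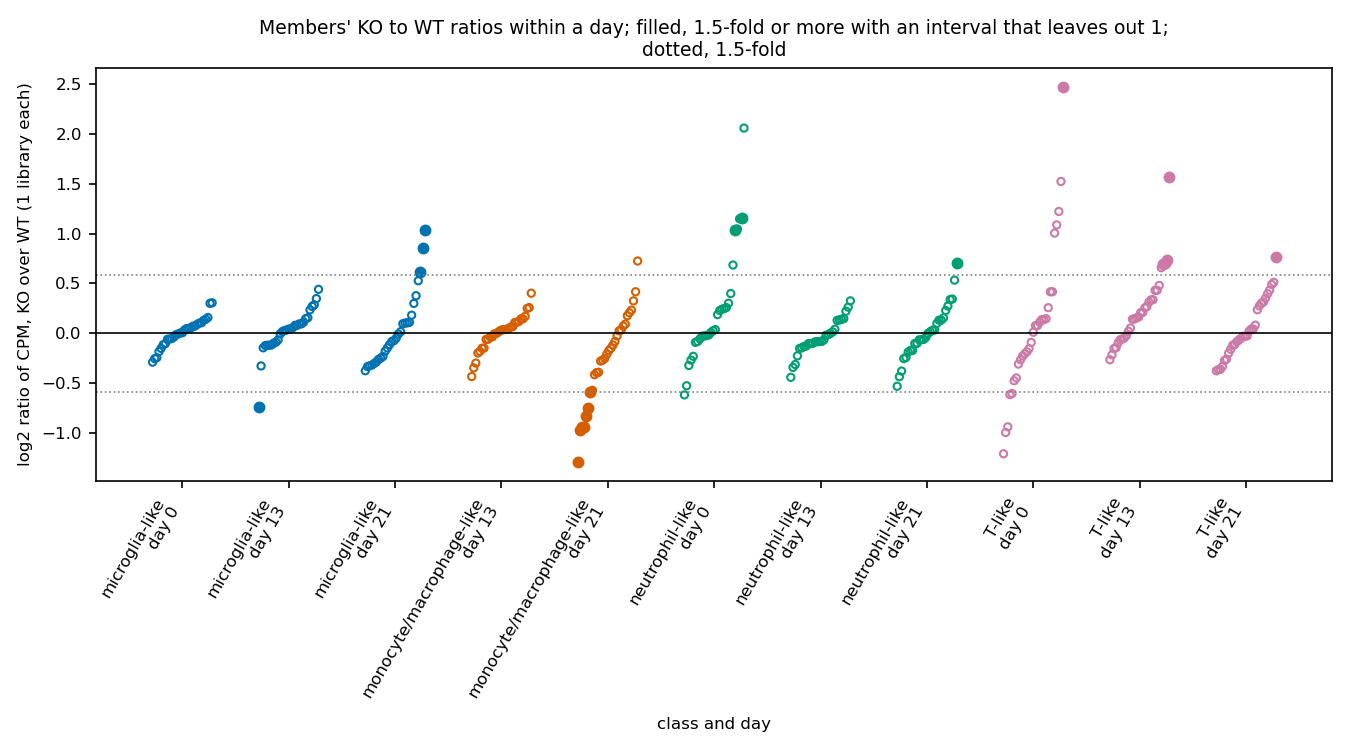
Log2 ratio of CPM, KO over WT (vertical axis, 1 library each), of the members with at least 10 CPM in either library, for each class and day (horizontal axis); filled points are 1.5-fold or more apart with an interval that leaves out 1, and dotted lines mark 1.5-fold. Filled points lie below 0 in monocyte/macrophage-like cells of day 21 and above 0 in microglia-like cells of day 21 and T-like cells of day 13.

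In microglia-like cells of day 21, 3 of 28 members were higher in KO and 0 lower (10.5% and 5.47% of all genes). Hk2 had a ratio of 2.06 (1.78 to 2.41), Pfkl of 1.83 (1.34 to 2.57) and Pdk1 of 1.55 (1.18 to 2.06). Hk2 was higher in KO on 3 of 3 days (297 and 367, 179 and 199, 154 and 317 CPM in WT and KO), with a log2 difference over days of 0.45 (SE 0.15, adjusted p = 0.999), and it was called without WT day 13 or KO day 13 (lowest adjusted p = 0.0358 in edgeR). On day 13 Slc16a3 alone of 29 members differed by that much in these cells, at 0.589 (0.399 to 0.851), where 4.27% of all genes were that much lower and 4.69% higher, and on day 0 none of 29 did (1.76% of all genes higher, 0.629% lower). Microglia markers summed to 17395 CPM in WT and 25274 in KO on day 21 and T markers to 250 and 41.0, and their part was not tested.

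In T-like cells of day 13 5 of 30 members were higher in KO and 0 lower (6.52% and 8.14% of all genes), with ratios of 3.05 for Slc16a3 (2.00 to 4.73), 1.68 for Pgk1, 1.64 for Pdk1 and 1.63 for Tpi1. NK cell markers summed to 915 CPM in these WT cells and 196 in KO, T markers to 8509 and 6874 and dissociation-induced genes to 1147 and 1625, and their part was not tested. With cells of mixed markers kept, 1 member was that far apart. On day 21 Pdk1 alone was, at 1.73 (1.18 to 2.47), where 8.53% of all genes were higher and 8.3% lower. On day 0, with 136 and 83 cells, 5 were higher and 5 lower of 29 (18.8% and 20.4%), and Slc16a1 was apart on 8 UMIs in KO and 2 in WT. In neutrophil-like cells Slc16a3 was the member apart on day 21, at 1.64 (1.39 to 1.94), where 3.17% of all genes were higher and 12.4% lower. On day 13 none was (3.34% and 10.2%). On day 0, with 243 and 79 cells, 6 were higher and 1 lower of 28 (14.3% and 21.0% of all genes), with Pgk1 at 2.08 and Pdha1 at 2.30 beyond counting error. Progenitor markers stood at 75.4 CPM in WT and 1530 in KO that day and cell cycle genes at 457 and 202, and their part was not tested. In B-like cells 5 of 27 members were higher and 4 lower in KO on day 0 (20.2% and 25.1% of all genes), Ldha (1.96) and Pgls (0.433) beyond counting error. Cell cycle genes summed to 1791 CPM in WT and 144 in KO of these cells, and their part was not tested. On day 13 0 of 26 were higher and 3 lower (7.25% and 11.8%), Slc2a1 (0.362) and Pgd (0.507) beyond counting error, and on day 21 2 of 24 were higher and 4 lower (22.3% and 13.7%), none beyond it. Tkt was at 0.622 in plasmacytoid dendritic-like cells of day 13 (18.7% of all genes lower).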

How the data were processed

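The deposited matrices hold UMI counts per gene and barcode, whole numbers without normalization, made by the authors with Cell Ranger 2.0.2; the build was mm10, both per the submitters' processing notes. How intronic or multiply mapped reads were counted is not given in the sources used here. A barcode was kept with 200 or more genes and no more than 10% of UMIs from mitochondrial genes; 23 were removed and 20007 left. No doublet caller was run, and barcodes with markers of several classes were set aside. How markers were scored in the gate was decided after the data were seen. Sums per library and class were scaled to CPM. Counts are from 3' ends, so levels were not divided by gene length, and they were compared between classes, not between genes, except as shares within a family.

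Tests used edgeR 4.0.16 (quasi-likelihood, TMM, filterByExpr, Benjamini-Hochberg over all genes, 0.05) in R 4.3.3 with limma 3.58.1, with the library, genotype or day as covariate, and DESeq2 1.42.0 as an alternative. Each group is 1 library, so libraries of the other genotype or day served as replicates and p-values measure only the spread between them. Log2 differences are those of the fit after TMM scaling, while CPM rest on library totals, so they can differ. Within-day ratios are of CPM (pseudocount 1 on the log2 scale) for members at 10 CPM or above in 1 library or both. Shares were tested by exact permutation in scipy 1.17.1. Tables and figures were made with Python 3.11.15, numpy 2.4.6, pandas 2.3.3 and matplotlib 3.10.9. The scripts were tested on simulated data. All 32 members could be named, with values in every library for up to 10 per comparison and up to 4 genes of each other list. The members, lists and the split by Arg1 were chosen with earlier results of these data known. Alternatives were other tests, scalings, filters, gates, a 5% mitochondrial limit and each library left out.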

Additional observations from a re-analysis of the deposited data

Results flagged for a closer look

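For 6 members the difference between day 21 and day 13 was not the same in monocyte/macrophage-like as in microglia-like cells, by an interaction term in edgeR over the 4 libraries of those days. Of all genes 0.922% had a lower and 1.23% a higher difference in monocyte/macrophage-like cells. The log2 interaction of Tpi1 was -1.302 (SE 0.24, adjusted p = 0.0037). Tpi1 was at 614, 663, 439 and 228 CPM in monocyte/macrophage-like cells of WT day 13, KO day 13, WT day 21 and KO day 21 and at 137, 109, 155 and 124 CPM in microglia-like cells. Slc16a3 had -1.162 (SE 0.25, adjusted p = 0.0120), with a day difference of 0.39 in microglia-like cells. Pdk1 had -1.264 (adjusted p = 0.0178), Aldoa -0.9049 (0.0144) and Hif1a -1.002 (0.0267). Pdha1 alone had a higher difference, 0.9802 (adjusted p = 0.049), with 51.4, 52.9, 69.0 and 78.1 CPM in monocyte/macrophage-like and 31.7, 40.6, 19.9 and 26.2 in microglia-like cells. DESeq2 called 2 of the members, the gate that kept mixed cells 0, and leaving out KO day 13 or WT day 21 gave 2 and 13.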

How the results depend on the processing

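Of 2208 checks of a called member under an alternative, 1947 kept the direction and the side of the threshold, 259 no longer passed and 2 reversed. Both of the last were with library totals, Tpi1 (-0.0812) and Mpc1 (-0.455) in neutrophil-like against microglia-like cells. Causes were not tested. Members called were, with DESeq2, 6 in microglia-like cells between days 0 and 13, 4 in neutrophil-like cells between the same days, and 1, 3 and 0 in monocyte/macrophage-like, T-like and neutrophil-like cells between days 13 and 21, with 2 for the interaction. With library totals the last comparison gave 1 in monocyte/macrophage-like and 5 in neutrophil-like cells. Without a filter on low counts 1 was called in microglia-like cells between days 13 and 21 and 1 each for KO against WT in T-like and neutrophil-like cells. With 2 markers 4 were called in monocyte/macrophage-like cells between days 13 and 21, and with 4 markers 1 in T-like cells for KO against WT. With mixed cells kept, 0 were called in monocyte/macrophage-like and neutrophil-like cells between days 13 and 21, 0 for the interaction and 20 in T-like cells between days 0 and 13. The same setting gave 2, 5, 1, 2, 2 and 2 members 1.5-fold apart in microglia-like day 13, monocyte/macrophage-like day 21, T-like days 13 and 21 and neutrophil-like days 13 and 21, where 1, 8, 5, 1, 0 and 1 were reported. A limit of 20 CPM left 4 in plasmacytoid dendritic-like cells, against 7.

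With 1 library left out, calls ranged from 4 to 18 in microglia-like, 8 to 14 in T-like, 1 to 10 in neutrophil-like and 10 to 20 in monocyte/macrophage-like cells between days 0 and 13. Between days 13 and 21 they ranged from 0 to 7 in microglia-like, 3 to 9 in T-like and 1 to 3 in neutrophil-like cells, and from 2 to 13 for the interaction. For KO against WT the range was 0 to 1 in microglia-like, 0 to 2 in T-like and 0 to 1 in neutrophil-like cells, and for the class contrasts 26 to 29, 27 to 28 and 18 to 21 in monocyte/macrophage-like, neutrophil-like and T-like cells and 9 to 12 for Arg1. No library could be left out of the monocyte/macrophage-like fits of day 21 against day 13 and of KO against WT, which leaves no residual degrees of freedom. No paired analysis was possible because each group holds 1 library, so no replicate numbers are shared (the blocks by library and by day are part of the tests as reported). Over all genes, calls between days 13 and 21 ranged over the alternatives from 0 to 571 in microglia-like (205 as reported), 46 to 694 in monocyte/macrophage-like (410), 28 to 291 in T-like (155) and 67 to 472 in neutrophil-like cells (273), and from 48 to 425 for the interaction (222). Between days 0 and 13 they ranged from 1348 to 3653 (3049), 749 to 1955 (1263), 394 to 1623 (974) and 489 to 1223 (1028) in the same order of classes, and for Arg1 from 177 to 740 (429). For KO against WT they ranged from 0 to 72 (2), 0 to 35 (1), 0 to 108 (46) and 0 to 62 (2). The depth limits the day 0 values most, with 44 to 136 cells in the KO or WT sums of monocyte/macrophage-like and T-like cells.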
